A study of Mus musculus with 52 samples.

Results

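Gad1, Gad2, Slc32a1, Lhx6, Sst, Npy, Pvalb, Cck and Vip are genes by which inhibitory interneurons of the forebrain are recognised. These 9 genes were taken by name and not by a measured value, though earlier results of these data were known by then. All 9 were found among the 48526 gene IDs of each table. The series holds 52 libraries of poly-A RNA in 14 groups, made from brain tissue of KO mice, which lack miR-146a, and of wild-type (WT) mice. The E14 set, from whole cortex at embryonic day 14, held 5 KO and 4 WT libraries. The P30 set, from postnatal day 30, held 4 KO and 4 WT libraries in each of 3 regions, the amygdala, frontal cortex and hippocampus. The P60 set, from postnatal day 60, held 4 KO and 3 WT libraries in the amygdala, 4 KO and 3 WT in the frontal cortex, and 2 KO and 3 WT in the hippocampus. The sources used here do not state how the KO allele was made, the mouse strain or any pooling of animals. By its title the study asks about miR-146a in the developing brain, so KO was compared with WT in each of 7 settings, and regions were compared at P30 and at P60.

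Interneurons release the transmitter GABA. Gad1 and Gad2 encode the enzymes GAD67 and GAD65, which make GABA from glutamate, and Slc32a1 encodes VGAT, the transporter that loads it into vesicles. Lhx6 is a transcription factor of interneurons born in the medial ganglionic eminence, the embryonic source of the cells marked by parvalbumin (Pvalb, a calcium-binding protein of fast-spiking cells) and by the peptide somatostatin (Sst). Neuropeptide Y (Npy) marks several classes, and vasoactive intestinal peptide (Vip) and cholecystokinin (Cck) mark classes from the caudal ganglionic eminence. The markers are not exclusive: GABAergic projection neurons of the striatum and central amygdala also use Gad1, Gad2 and Slc32a1, and many excitatory neurons express Cck.

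All 9 are protein-coding genes, placed here by the GENCODE M21 annotation (GRCm38), which is not the build named in the submitters' processing notes. On chromosome 2 lie Gad1 (ENSMUSG00000070880) at chr2:70553072-70602014 on the plus strand, Gad2 (ENSMUSG00000026787) at chr2:22622205-22693874 on the plus strand, Slc32a1 (ENSMUSG00000037771) at chr2:158610767-158615748 on the plus strand and Lhx6 (ENSMUSG00000026890) at chr2:36081953-36105408 on the minus strand. The other 5 lie on 5 chromosomes, Sst (ENSMUSG00000004366) at chr16:23889573-23890958 on the minus strand, Npy (ENSMUSG00000029819) at chr6:49822710-49829507 on the plus strand, Pvalb (ENSMUSG00000005716) at chr15:78191114-78206400 on the minus strand, Cck (ENSMUSG00000032532) at chr9:121489824-121495694 on the minus strand and Vip (ENSMUSG00000019772) at chr10:5639218-5647617 on the plus strand.

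The KO mice lack a microRNA whose bases 2 to 8, its seed, pair with messenger RNA. The mature miR-146a-5p and its relative miR-146b-5p are shown because they share this seed, printed in capitals (RefSeq, GRCm38.p6, chr11:43374435-43374456, minus strand, and chr19:46342790-46342811, plus strand).
miR-146a-5p: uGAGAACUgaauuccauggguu
miR-146b-5p: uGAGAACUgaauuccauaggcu

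The longest annotated 3′ untranslated region of each member was searched on its own strand for AGTTCTC, the match to bases 2 to 8, and GTTCTCA, the match to bases 2 to 7 followed by A. Gad1 and Gad2 held 1 match each, shown in capitals from the GENCODE M21 transcripts (GRCm38; Gad1 at chr2:70601771-70601799 and Gad2 at chr2:22690360-22690388, both plus strand), and no match was found in the other 7 members.
Gad1: gtatgtcagatGTTCTCAaagcttttcta
Gad2: caaactgtttcAGTTCTCtaggtagacag

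That is 22.2% of the 9 members, beside 18.2% (3816) of 21020 genes searched in the same way. A match is a stretch of letters and not a measured site.

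The 100 bases before the RefSeq start of Sst and Vip (GRCm38.p6; chr16:23890845-23890944, minus strand, and chr10:5639118-5639217, plus strand) are shown as peptide genes whose promoters hold a cAMP response element or its core. Capitals mark the cAMP response element TGACGTCA in Sst and its core TGACG in Vip.
Sst: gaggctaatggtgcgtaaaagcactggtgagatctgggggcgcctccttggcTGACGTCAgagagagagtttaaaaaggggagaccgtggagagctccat
Vip: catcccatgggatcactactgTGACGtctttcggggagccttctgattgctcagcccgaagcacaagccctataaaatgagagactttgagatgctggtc

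Both strands of the 250 bases before the start were searched in all entries, which include all 9 members. TGACGTCA, which contains TGACG on both strands, was in Sst alone of the members and in 1.546% (508) of 32851 promoters. TGACG was in Sst, Vip, Cck and Gad2 and in 17.765% of promoters. The TATA box TATAAA was in Gad1 and Vip and in 12.368% of promoters, and the homeodomain core TAATTA was in none of the members and in 4.84% of promoters.

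The E14 libraries held 8079912 to 9469214 recovered reads, the P30 libraries 2933026 to 8141105 and the P60 libraries 5322181 to 7379353. Only 1 read fell on Mir146, the deleted gene, in 1 of the 52 libraries (WT P30 hippocampus replicate 4). Mature microRNAs have no poly-A tail, so the genotype labels could not be checked in this way. After the data were seen, 5 libraries were set apart by their sums of marker genes of other cells. WT P30 hippocampus replicate 3 had summed normalised read counts of 5707 for 8 choroid plexus genes and 19465 for 8 oligodendrocyte genes, where the other 7 libraries of that region and age had at most 1234 and 13476. WT P30 amygdala replicate 3 had 6954 for the oligodendrocyte genes and 529.8 for 10 striatal-type projection neuron genes, against at most 2682 and 363 in the other 7. The same 10 genes summed to 461 in KO P60 amygdala replicate 3, against at most 255 in the other 6, and to 1121 and 1826 in KO and WT P60 hippocampus replicate 1, against at most 100.99 in the other 3. Choroid plexus genes were also high in WT P30 amygdala replicate 1 (1315, against at most 49.8 in the other 7), KO P30 frontal cortex replicate 2 (736, against at most 281) and KO P60 frontal cortex replicate 2 (241, against at most 44.7 in the other 6). These 3 are not among the 5; without them and WT P30 hippocampus replicate 3, no member was called between KO and WT, and Cck between amygdala and frontal cortex (-0.51, limma adjusted p = 0.0277) and Gad2 between hippocampus and frontal cortex (-0.31, limma adjusted p = 0.0220) were called in addition at P30. The choroid plexus sum of 1234 was that of KO P30 hippocampus replicate 4, where the next library below it had 207. That library was kept in both of these omissions. Sex, read from Xist and Y-linked genes, was uneven at P30, with 3 females and 1 male in KO and 1 female and 3 males in WT. At E14 there were 2 females and 3 males in KO and 3 females and 1 male in WT. The genotypes were thus not balanced for sex at P30 or at E14.

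At E14 the whole cortex carried the general GABAergic genes and the genes of the medial ganglionic eminence lineage, with almost no Pvalb or Vip. Values are normalised read counts, and a level compared between genes is divided by the exon length in kilobases. Over the 9 E14 libraries Sst stood at 74.8 ± 16.7 per kilobase, Gad2 at 54.6 ± 9.05, Lhx6 at 28.2 ± 7.64 and Gad1 at 20.9 ± 4.27 (SD, n = 9). Npy followed at 16.7 ± 4.85, Slc32a1 at 12.2 ± 1.68 and Cck at 4.45 ± 1.65 per kilobase. Sst and Gad2 headed this order by more than the spread between libraries. Lhx6 and Gad1, Gad1 and Npy, and Npy and Slc32a1 each differed by less than the larger of their SDs. Exon length is the union over annotated transcripts, so the level of a gene with many isoforms, such as Gad1, is understated on this scale.

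Pvalb had 1 read in all, in 1 of the 5 KO libraries, and 0 reads in the 4 WT libraries. Vip had 0 reads in the 5 KO libraries and 2 reads in all in the 4 WT libraries. For a library with 0 reads, 3 reads are the limit this count allows, which is a normalised read count of 0.313 to 0.377 at E14 and covers counting error only. Both genes were left out of the tests at that age, so 7 of the 9 members were tested at E14, and all 9 at P30 and at P60.

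After birth all 9 genes were read in every library. At P30 the order per kilobase in the frontal cortex was Sst (169.9 ± 10.6), Cck (124 ± 16.98), Npy (89.5 ± 11.0), Gad2 (33.9 ± 6.76) and Gad1 (28.6 ± 2.71), followed by Pvalb (20.1 ± 1.90), Slc32a1 (18.6 ± 3.06), Vip (6.402 ± 0.594) and Lhx6 (4.48 ± 0.490; SD, n = 8). Gad2 and Gad1 differed by less than the larger of their SDs, and so did Pvalb and Slc32a1. The 3 peptides Sst, Cck and Npy held the first 3 places in every region at P30 and P60. In the hippocampus Cck came first, at 129.9 ± 33.4 and Sst second at 116 ± 41.5 per kilobase at P30, and at 128 ± 37.5 and 121 ± 47.6 at P60 (SD, n = 8 at P30 and 5 at P60), a gap smaller than the spread between libraries. Pvalb was last of the 9 in the amygdala at both ages, and Vip was last in the hippocampus.

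**Figure D1:**
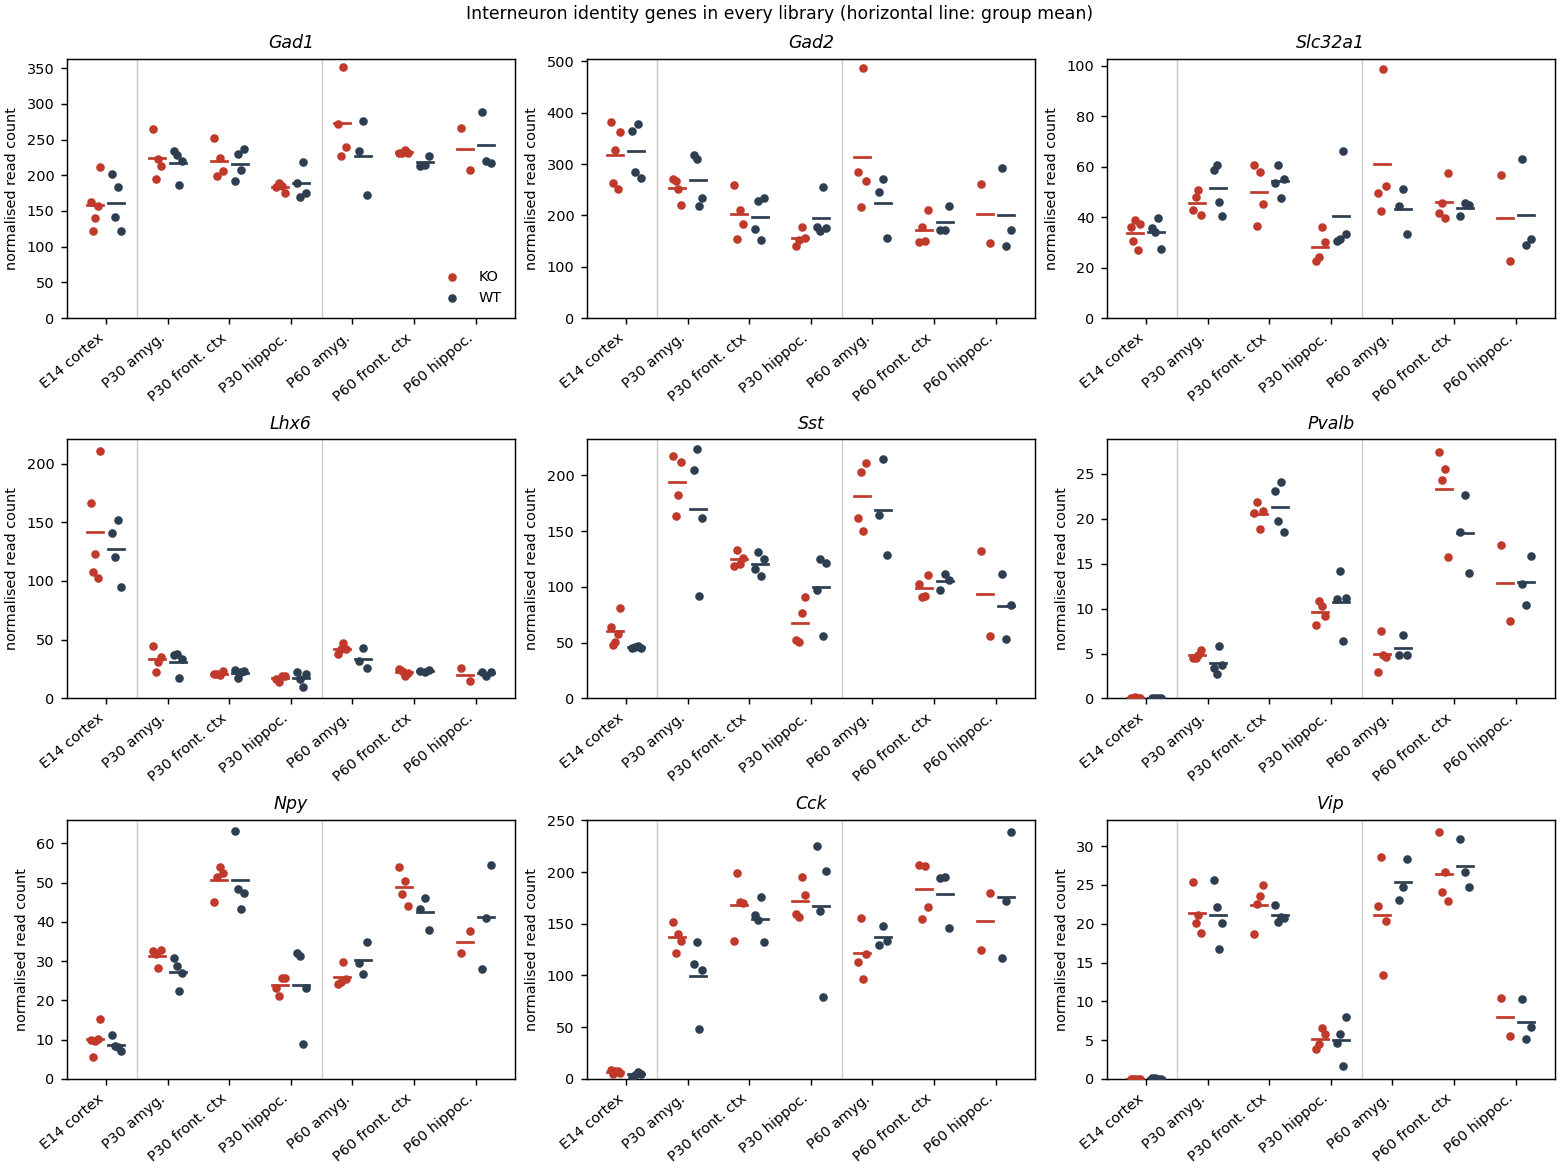
Normalised read count (vertical axis, linear from 0) of the 9 genes in every library, by age and region, with KO in red left of WT in dark blue; each point is a library and each line a group mean. KO and WT points lie over each other in most panels, while Pvalb is highest in the frontal cortex and Vip lowest in the hippocampus after birth.

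The ages are set side by side without a test, because their tables were normalised separately. Lhx6 averaged 135 ± 36.7 in the E14 cortex, 21.5 ± 2.35 in the P30 frontal cortex and 22.8 ± 1.77 in the P60 frontal cortex (SD, n = 9, 8 and 7). Cck averaged 5.80 ± 2.15, 162 ± 22.2 and 181 ± 25.1 at these ages, and Npy 9.44 ± 2.75, 50.6 ± 6.21 and 46.1 ± 5.16. Lhx6 was thus at its highest in the embryo, and the peptides Cck and Npy after birth, with no overlap between the E14 libraries and the frontal cortex libraries for any of the 3 genes. Tissue and age differ together here, since whole cortex was taken at E14 and frontal cortex later.

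The regional order of the 9 genes was the clearest pattern, and the class markers did not all share an order. Pvalb was highest in the frontal cortex and lowest in the amygdala, Vip was low in the hippocampus, and Sst and Lhx6 were highest in the amygdala. Npy was highest in the frontal cortex at P30, while at P60 frontal cortex and hippocampus overlapped without a call. These regional contrasts average over KO and WT and were tested with limma on log2(value + 1), with p-values adjusted over all genes tested at that age (18976 at P30 and 19239 at P60). A log2 difference on this scale understates the change of low genes. Of all genes tested, 37.3% passed between amygdala and frontal cortex at P30, 43.3% between hippocampus and frontal cortex and 44.1% between amygdala and hippocampus; at P60 the shares were 31.4%, 32.8% and 29%. Against these shares, 5, 6 and 8 of the 9 members passed at P30 and 5, 2 and 5 at P60. The members' median log2 difference was -0.040, -0.62 and 0.55 at P30 beside 0.064, -0.012 and 0.075 for all genes, and 0.12, -0.25 and 0.40 at P60 beside 0.072, -0.00081 and 0.065. Regions without overlapping libraries were seen for 2, 3 and 2 of the 9 members at P30, beside 10.4%, 16.1% and 11.7% of all genes, and for 4, 1 and 3 at P60, beside 12.2%, 18.6% and 13.9%. Since these are bulk samples, fewer cells of a type and less RNA per cell cannot be told apart.

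**Figure D2:**
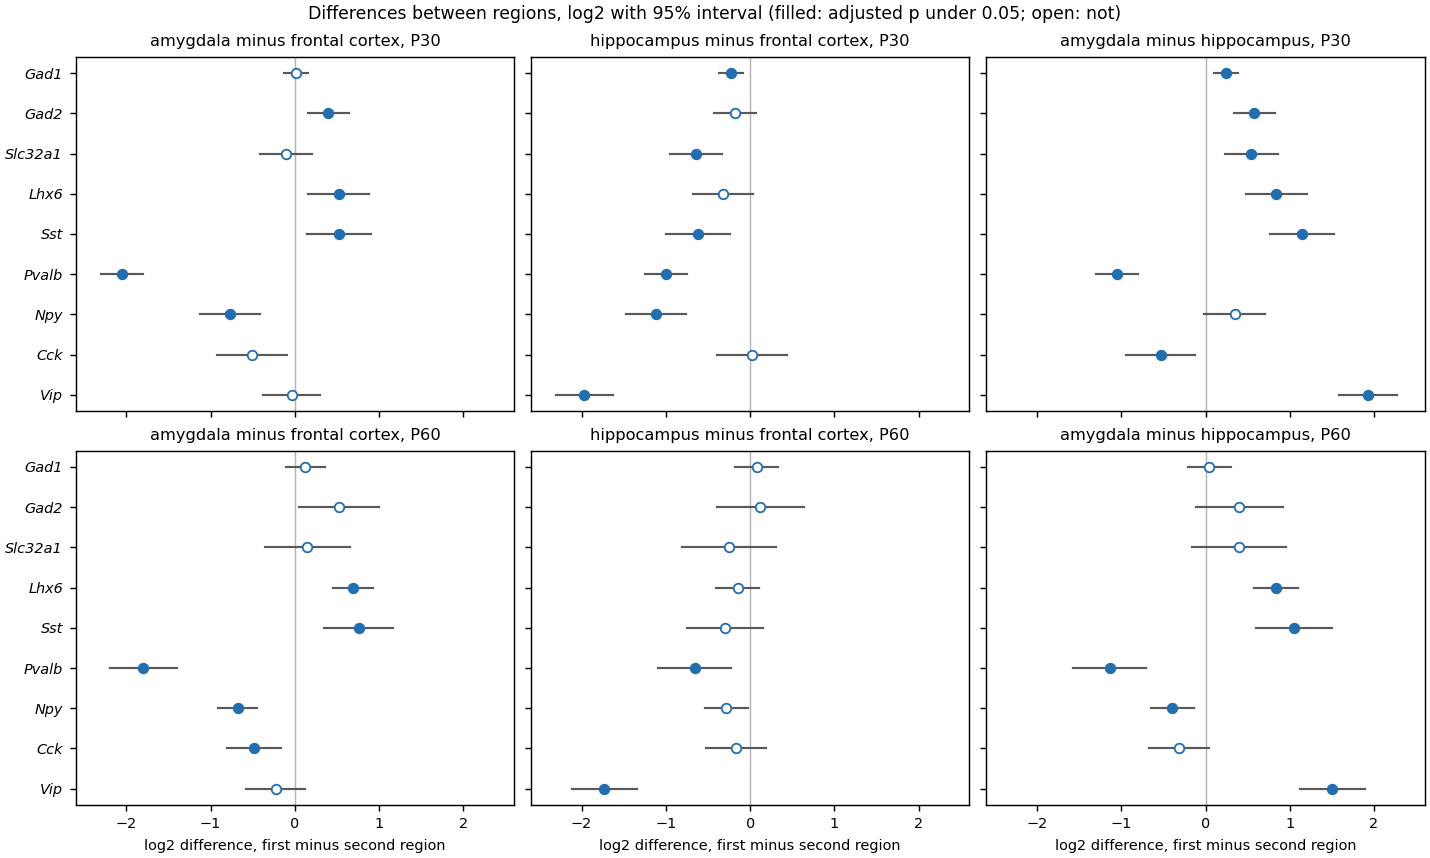
Log2 difference between regions (horizontal axis, first minus second region) for the 9 genes at P30 (top row) and P60 (bottom row), with the 95% interval as a line; filled points passed an adjusted p of 0.05. Pvalb lies left of 0 in the amygdala and hippocampus panels against frontal cortex at both ages, and Vip lies far left of 0 in the panels of hippocampus against frontal cortex.

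Pvalb, the marker of fast-spiking basket and chandelier cells, showed the steepest regional order. At P30 its normalised read count was 2.77 to 5.85 (median 4.53) in the 8 amygdala libraries, 6.41 to 14.2 (median 10.6) in the 8 hippocampus libraries and 18.5 to 24.1 (median 20.7) in the 8 frontal cortex libraries. The 3 regions did not overlap. The log2 difference was -2.05 (SE 0.12, limma adjusted p = 5.03e-12) in the amygdala against the frontal cortex. In the hippocampus against the frontal cortex it was -0.9988 (SE 0.12, limma adjusted p = 2.36e-07). At P60 the amygdala libraries lay at 2.97 to 7.56 (median 4.83) and the hippocampus libraries at 8.62 to 17.1 (median 12.8), against 14.01 to 27.5 (median 22.7) in the frontal cortex. The amygdala was again apart from both other regions, whereas hippocampus and frontal cortex overlapped. The P60 differences were -1.80 (SE 0.19, limma adjusted p = 1.49e-06) for the amygdala and -0.66 (SE 0.21, limma adjusted p = 0.0197) for the hippocampus, each against the frontal cortex. The call for the hippocampus ended without KO P60 hippocampus replicate 2 (adjusted p = 0.177, limma), WT P60 hippocampus replicate 2 (0.0533) or WT P60 frontal cortex replicate 2 (0.0529).

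Vip, which marks interneurons that mostly contact other interneurons, was set apart in the hippocampus. At P30 it was 1.71 to 8.02 (median 5.21) in the hippocampus, against 18.7 to 25.03 (median 21.6) in the frontal cortex, and it was 16.7 to 25.6 (median 20.7) in the amygdala. At P60 the hippocampus libraries lay at 5.09 to 10.4 (median 6.71), against 22.9 to 31.8 (median 26.7) in the frontal cortex, and the amygdala libraries at 13.4 to 28.6 (median 23.0). No hippocampus library reached the lowest library of the other 2 regions at its age. The log2 difference of hippocampus against frontal cortex was -1.97 (SE 0.16, limma adjusted p = 9.01e-10) at P30 and -1.73 (SE 0.18, limma adjusted p = 1.68e-06) at P60. Amygdala and frontal cortex differed by -0.040 at P30 (95% interval -0.38 to 0.30) and -0.23 at P60 (-0.58 to 0.12), neither of which passed the test (limma adjusted p = 0.878 and 0.328).

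Sst, a peptide of dendrite-targeting interneurons, and Lhx6, a lineage factor of such cells, shared an order with the amygdala on top. Which cells of the amygdala carried these genes was not tested. Sst was 91.4 to 223 (median 194) in the P30 amygdala, 50.8 to 125 (median 83.7) in the hippocampus and 110.0 to 133 (median 123) in the frontal cortex. Lhx6 was 17.04 to 44.9 (median 34.1) in the P30 amygdala, 9.62 to 22.5 (median 17.96) in the hippocampus and 17.02 to 24.3 (median 21.7) in the frontal cortex. WT P30 amygdala replicate 3, with Sst at 91.4 and Lhx6 at 17.04, lay below the other amygdala libraries, and the regions overlapped for both genes at P30. Amygdala exceeded hippocampus in Sst by 1.14 (SE 0.18, limma adjusted p = 3.05e-05) at P30 and by 1.05 (SE 0.21, limma adjusted p = 0.00165) at P60. In Lhx6 the same difference was 0.84 (SE 0.17, limma adjusted p = 0.000411) at P30 and 0.84 (SE 0.12, limma adjusted p = 4.97e-05) at P60.

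Sst was also lower in the P30 hippocampus than in the frontal cortex, by a log2 difference of -0.62 (SE 0.18, limma adjusted p = 0.00848), which was -0.33 and not called in WT libraries only (limma adjusted p = 0.368). Amygdala against frontal cortex, the log2 difference of Sst was 0.52 (SE 0.18, limma adjusted p = 0.0281) at P30 and 0.76 (SE 0.19, limma adjusted p = 0.00764) at P60. That of Lhx6 was 0.52 (SE 0.17, limma adjusted p = 0.0219) at P30 and 0.69 (SE 0.11, limma adjusted p = 0.000132) at P60. At P60 Sst lay at 128 to 214 (median 165) in the amygdala, against 90.5 to 112 (median 103) in the frontal cortex, and Lhx6 at 26.2 to 46.9 (median 41.8), against 19.5 to 25.1 (median 23.3). The P60 amygdala and frontal cortex did not overlap for either gene. The P30 calls were near the threshold: with a scaling by the trimmed mean of M-values they ended (limma adjusted p = 0.062 for Sst and 0.0505 for Lhx6). The P30 call of Sst also ended without KO amygdala replicate 1 or 4, WT amygdala replicate 1 or 2 or WT frontal cortex replicate 3 (limma adjusted p from 0.0501 to 0.0663), and that of Lhx6 without KO amygdala replicate 1 (0.053) or WT amygdala replicate 2 (0.0504).

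Npy and Cck followed other orders. Npy was 22.4 to 32.8 (median 29.8) in the P30 amygdala and 8.98 to 32.1 (median 24.5) in the hippocampus, against 43.3 to 63.1 (median 49.9) in the frontal cortex. Both regions were below every frontal cortex library, and the log2 differences were -0.77 (SE 0.17, limma adjusted p = 0.00135) for the amygdala and -1.11 (SE 0.17, limma adjusted p = 1.82e-05) for the hippocampus. At P60 the amygdala was again lower (-0.68, SE 0.11, limma adjusted p = 0.000125), while the hippocampus lay at 28.03 to 54.5 (median 37.5) against 38.0 to 54.0 (median 46.1) in the frontal cortex, and the regions overlapped without a call (-0.28, SE 0.12, limma adjusted p = 0.0829). Npy was lower in the amygdala than in the hippocampus at P60 (-0.40, SE 0.12, limma adjusted p = 0.0191), where the P30 difference was 0.34 with no call (limma adjusted p = 0.113). Leaving out WT amygdala replicate 2 (0.0508), KO hippocampus replicate 2 (0.111) or WT hippocampus replicate 3 (0.0527) ended that P60 call.

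Cck was lower in the amygdala, at 47.9 to 152 (median 127), than in the hippocampus, at 78.9 to 225 (median 169.8), at P30 (-0.53, SE 0.20, limma adjusted p = 0.0348), a call that ended without 8 of 16 single libraries (limma adjusted p up to 0.0811 without WT hippocampus replicate 1) and was 0.0706 without WT amygdala replicate 3, which held the lowest value. Against the frontal cortex at 133 to 199 (median 164), the amygdala difference was -0.51 (SE 0.20, limma adjusted p = 0.0506) at P30, just short of a call, and -0.49 (SE 0.15, limma adjusted p = 0.0224) at P60. The P60 call ended without WT amygdala replicate 1, WT frontal cortex replicate 1 or WT frontal cortex replicate 2 (limma adjusted p = 0.0501, 0.0549 and 0.0564), and with the replicate number as a block (0.0598). The hippocampus gave no call against the frontal cortex at either age, with 95% intervals of -0.39 to 0.44 at P30 and -0.52 to 0.18 at P60.

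Gad1, Gad2 and Slc32a1 differed between regions at P30 and gave no call at P60. At P30 the amygdala exceeded the hippocampus in Gad2 by 0.58 (SE 0.12, limma adjusted p = 0.000375), in Slc32a1 by 0.55 (SE 0.15, limma adjusted p = 0.00484) and in Gad1 by 0.24 (SE 0.069, limma adjusted p = 0.00601). Gad2 lay at 218 to 317 (median 259.7) in the amygdala, 141 to 255 (median 173) in the hippocampus and 153 to 259 (median 197) in the frontal cortex. Slc32a1 lay at 40.3 to 60.7 (median 47.0), 22.6 to 66.3 (median 30.9) and 36.4 to 60.8 (median 54.2) in the same regions. The hippocampus was lower than the frontal cortex in Slc32a1 (-0.65, SE 0.15, limma adjusted p = 0.00124) and in Gad1 (-0.23, SE 0.069, limma adjusted p = 0.00915), the first of these the largest difference of the 3 genes at P30. Amygdala and frontal cortex differed in Gad2 (0.40, SE 0.12, limma adjusted p = 0.0110) and not by test in Gad1 or Slc32a1 (95% intervals -0.13 to 0.16 and -0.41 to 0.21). At P60 none of the 3 genes gave a call between regions, with Gad2 at limma adjusted p = 0.0855 between amygdala and frontal cortex. Scaling by the trimmed mean of M-values ended the Gad1 call between amygdala and hippocampus (limma adjusted p = 0.0527). Gad1 overlaps the antisense gene Gad1os and Slc32a1 the antisense gene Gm14205, and the sources used here do not state whether the authors counted by strand.

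Hippocampal calls at P60 moved with the 2 replicate 1 libraries that were high in striatal-type genes. Without both of them, Slc32a1 (-0.75, limma adjusted p = 0.0192), Sst (-0.72, 0.00449) and Lhx6 (-0.36, 0.0308) were also lower in the hippocampus than in the frontal cortex, and 5 members passed in place of 2. In the amygdala against the hippocampus, Slc32a1 (0.89, limma adjusted p = 0.00749), Gad2 (0.77, 0.0358) and Cck (-0.58, 0.0111) passed in addition under that omission, 8 members in place of 5. Leaving out KO replicate 1 alone gave 4 between hippocampus and frontal cortex, with Sst (-0.60, 0.0289) and Lhx6 (-0.34, 0.0376) added. At P30, leaving out WT replicate 3 of the amygdala and of the hippocampus left the members called between hippocampus and frontal cortex at 6, and added Cck between amygdala and frontal cortex (-0.35, 0.00288). The shares of all genes called under these omissions are not given here. The counts therefore do not show whether the members moved apart from other genes.

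Other genes of the same cells were read from lists of fast-spiking, lineage and GABA genes. Their counts stand beside the shares of all genes called: at P30, 23.4% were higher and 13.9% lower in the amygdala than in the frontal cortex, 19.6% higher and 23.7% lower in the hippocampus than in the frontal cortex, and 28.8% higher and 15.3% lower in the amygdala than in the hippocampus. At P60 these shares were 20.3% and 11%, 15.8% and 17%, and 19.6% and 9.39%. Among 12 genes of fast-spiking cells and of the perineuronal net, the matrix around many parvalbumin cells, 7 were lower and 0 higher in the P30 amygdala than in the frontal cortex, a list median of -0.50 beside 0.064 for all genes. The largest log2 differences were those of Syt2 (-2.25), Scn1a (-0.93) and Hapln4 (-0.90), that is the synaptic vesicle calcium sensor synaptotagmin 2, a sodium channel subunit and a link protein of the net. In the P30 hippocampus 7 of the 12 were lower than in the frontal cortex, led by Syt2 (-1.52), Cox6a2 (-1.07) and Scn1a (-1.03), and 2 were higher, Acan (1.07) and Hapln1 (0.21). At P60 6 were lower and 1 higher in the amygdala, and 5 lower and 1 higher in the hippocampus, each against the frontal cortex. Syt2 and Scn1a were lower in all 4 of these contrasts, as Pvalb was, and Acan, which encodes the matrix protein aggrecan, was higher in the hippocampus at both ages (1.07 and 0.84).

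Of 12 genes of the medial ganglionic eminence lineage, 6 were higher and 1 lower in the P30 amygdala than in the frontal cortex among 10 tested, and 9 higher and 1 lower against the hippocampus (list medians 0.39 and 0.89). Against the frontal cortex these were led by Nos1 (2.02), Grin3a (1.28) and Crhbp (0.74); Nos1 encodes neuronal nitric oxide synthase, which Sst cells with long axons and many other neurons make. The gene that was lower was Satb1 (-1.64), a chromatin organiser that cortical excitatory neurons express too. The P30 hippocampus, against the frontal cortex, had 7 lower, among them Tac1 (-2.04) and Satb1 (-1.11), and 1 higher, Nos1 (0.89). At P60 the counts were 6 higher and 2 lower for amygdala against frontal cortex, 7 and 0 against hippocampus, and 1 and 5 for hippocampus against frontal cortex, among 12 tested.

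Genes of the caudal ganglionic eminence lineage, the source of Vip cells, went both ways. In the P30 amygdala 8 of 15 were higher than in the frontal cortex, led by Nr2f2 (2.56), Calb2 (2.37) and Htr3a (1.27), and 2 were lower, Lamp5 (-1.89) and Crh (-0.51). Of all genes, 23.4% were higher and 13.9% lower in this contrast, so only the lower count was near its share. In the P30 hippocampus 5 were higher, led by Prox1 (3.36), Calb2 (1.19) and Ndnf (1.06), and 6 lower, led by Lamp5 (-2.86), Crh (-1.48) and Nr2f1 (-0.79). Nr2f2 is also made by projection neurons of the amygdala, Prox1 is also the marker of dentate granule cells and Lamp5 is also made by excitatory neurons of the cortex, so none of the 3 follows interneurons alone. At P60 the counts were 8 higher and 2 lower in the amygdala and 4 higher and 6 lower in the hippocampus, each against the frontal cortex.

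Among 8 genes of GABA uptake and breakdown, 4 were higher and 0 lower in the P30 amygdala than in the hippocampus, among them the GABA transporters Slc6a13 (1.49) and Slc6a11 (0.53); in the brain Slc6a13 is mostly a gene of the meninges. The hippocampus had 4 lower and 0 higher against the frontal cortex at P30. Of the transcription factors of GABAergic neurons, 5 of 7 tested were higher in the P30 amygdala than in the hippocampus, among them Dlx6 (0.90) and Dlx2 (0.61), with 0 lower. At P60 3 of the 8 uptake and breakdown genes and 3 of the 7 factors were higher in that contrast, and 1 and 0 were lower.

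Ratios within a library do not depend on its scaling. Gad2 stood at 2.03 ± 0.270 times Gad1 in the E14 cortex, at 1.19 ± 0.150 in the P30 amygdala, 0.940 ± 0.124 in the P30 hippocampus and 0.908 ± 0.106 in the P30 frontal cortex (SD). At P60 the ratio was 1.06 ± 0.159, 0.824 ± 0.168 and 0.788 ± 0.125 in these regions. The lowest E14 library, at 1.61, was above the highest postnatal library, at 1.39. Within E14 the ratio was 1.61 to 2.36 in KO and 1.81 to 2.23 in WT, so the genotypes overlapped.

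The class markers were also set against the geometric mean of Gad1, Gad2 and Slc32a1 in the same library. On this scale Pvalb was 3.21 ± 1.03% in the P30 amygdala, 10.3 ± 2.99% in the hippocampus and 16.4 ± 3.68% in the frontal cortex (SD, n = 8 each). Vip was 15.1 ± 1.25%, 5.21 ± 1.98% and 17.03 ± 3.53% in the same order, and Sst 129 ± 27.6%, 84.0 ± 32.3% and 95.2 ± 16.1%. The places of Pvalb and Vip were the same as on the scale of normalised read counts, whereas for Sst the hippocampus and frontal cortex differed by less than the larger SD.

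**Figure D3:**
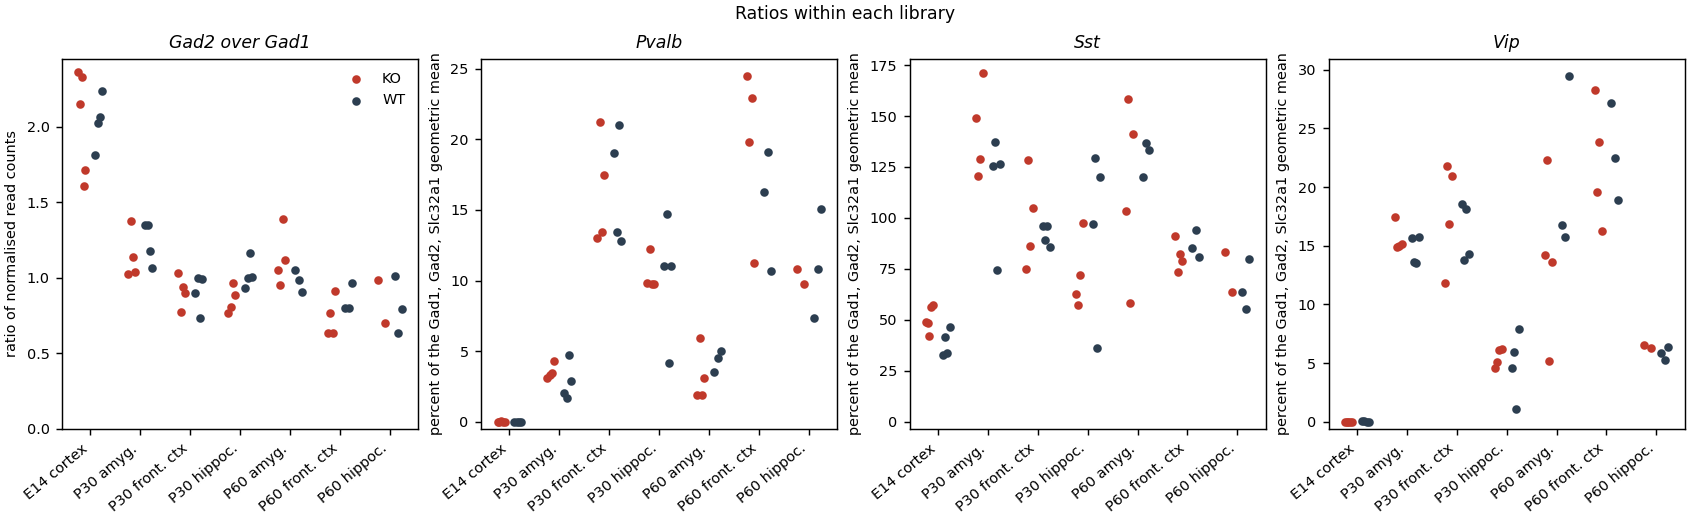
Left, Gad2 over Gad1 as a ratio of normalised read counts; then Pvalb, Sst and Vip as a percent of the geometric mean of Gad1, Gad2 and Slc32a1 in the same library, by age and region, KO in red left of WT in dark blue, a point per library. Every E14 library has a higher Gad2 to Gad1 ratio than any later library, and the Vip percent is lowest in the hippocampus at P30 and, apart from KO amygdala replicate 3, at P60.

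In the frontal cortex and hippocampus at P60, Gad2 and Slc32a1 moved with genes of striatal-type projection neurons, a list of 10 genes of the GABAergic output cells of the striatum and central amygdala. In the P60 frontal cortex the summed list was 208, 697, 244 and 1272 in the 4 KO libraries, with Gad2 at 148, 177, 149 and 211. The 3 WT libraries lay at 532, 553 and 943 for the list, with Gad2 at 171, 171 and 219. The 2 libraries with the largest list sum, 1 KO and 1 WT, were also the 2 with the most Gad2. In the P60 hippocampus the replicate 1 libraries had Gad2 at 262 in KO and 292 in WT and Slc32a1 at 56.7 and 63.0, against at most 171 and 31.3 in the other 3 libraries. Pearson's r with the list sum (log2 values) was 0.98 for Gad2 and 0.97 for Slc32a1 there. It was also high for Gad1 (0.99), Vip (0.96) and Sst (0.87), and negative for Npy (-0.82) and Cck (-0.89). In the P60 frontal cortex r was 0.94 for Gad2, 0.79 for Slc32a1 and -0.16 for Gad1. At P30 Gad2 and Slc32a1 also followed the list in the frontal cortex (r = 0.91 and 0.92) and hippocampus (0.89 and 0.87). The P30 hippocampus values of r rest largely on WT replicate 3, a library that was set apart. It had the largest list sum (160.3) and the most Gad2 (255) and Slc32a1 (66.3). The other P30 hippocampus libraries had list sums of 66.9 to 97.6. The P30 amygdala did not show this: WT replicate 3, with the largest list sum (529.8), had the lowest Gad2 of its region (218), and KO replicate 2, with the next largest (363), had Gad2 at 267. All 10 list genes were read in both of these libraries and in every frontal cortex library. The part of such neurons in the levels of Gad1, Gad2 and Slc32a1 was not tested.

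**Figure D4:**
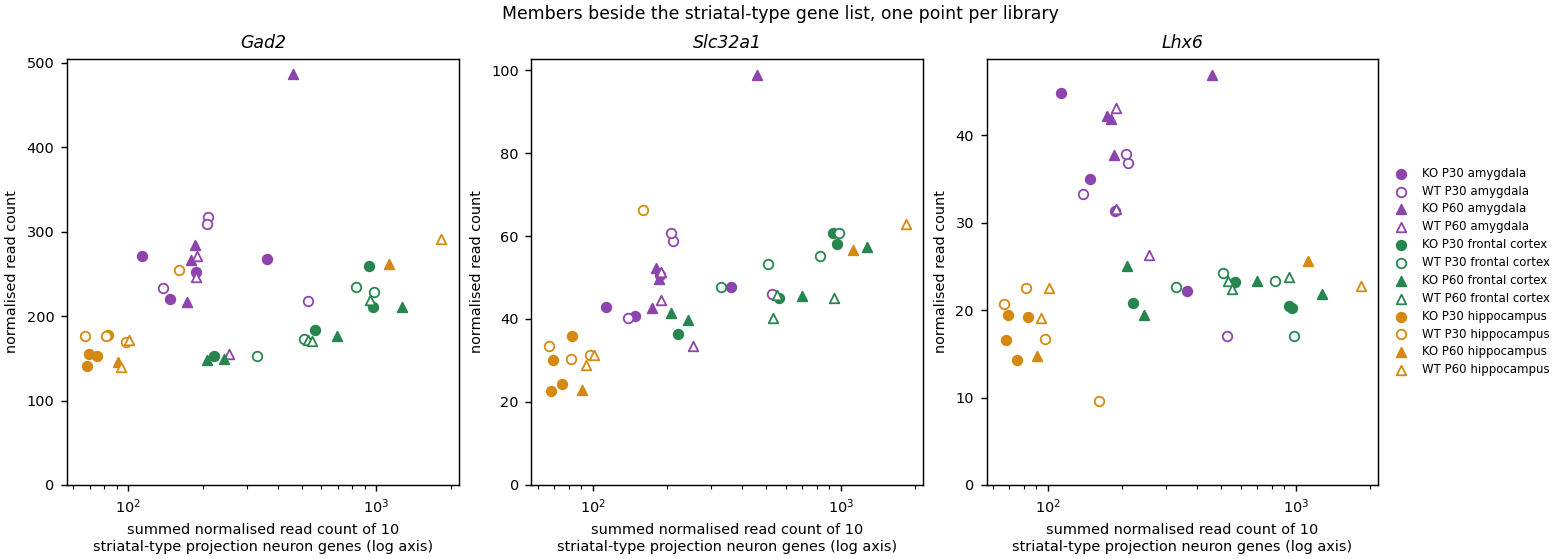
Gad2, Slc32a1 and Lhx6 (normalised read count, linear from 0) against the summed normalised read count of 10 striatal-type projection neuron genes (log axis) in the 43 libraries of P30 and P60, coloured by region, circles for P30, triangles for P60, filled for KO and open for WT. Gad2 and Slc32a1 tend to be higher in frontal cortex and hippocampus libraries with a larger list sum, and KO P60 amygdala replicate 3 has the highest Gad2, 487.

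Loss of miR-146a was followed by no called change in any of the 9 genes. By limma on log2(value + 1), 0 of the 7 tested members passed an adjusted p of 0.05 in the E14 cortex and 0 of 9 in each of the 6 postnatal settings, and voom on the recovered reads gave 0 in all 7 settings too. Of all genes tested, 0.049% passed at E14, 0.0263%, 0.0158% and 0.0316% in the P30 amygdala, frontal cortex and hippocampus, and 0.0208%, 0.0312% and 0.0208% in these regions at P60. At an unadjusted p under 0.05, limma counted 2 members at E14, 2 in the P30 hippocampus and 1 in the P60 amygdala. In the other 4 settings it counted 0. By voom the members counted 2 at E14, 1 in the P30 hippocampus, 1 in the P60 amygdala and 0 in the others. The share of all genes at this unadjusted threshold is not given here. KO and WT libraries did not overlap for Sst at E14 and for Gad1 in the P60 frontal cortex, and overlapped for every other member tested in the 7 settings; groups without overlap were 1.16% of all genes at E14, 6.65%, 2.36% and 3.15% in the P30 amygdala, frontal cortex and hippocampus, and 5.04%, 5.26% and 11.7% in these regions at P60. Of the 61 differences tested, 34 were above 0 and 27 below, and the lowest adjusted p was 0.519. The 95% interval of the log2 difference lay within -1 to 1 for 56 of the 61. The exceptions were Cck at E14 (upper bound 1.13) and in the P30 amygdala (1.14), Sst in the P30 hippocampus (lower bound -1.07), and Gad2 and Slc32a1 in the P60 amygdala (upper bounds 1.12 and 1.15).

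**Figure D5:**
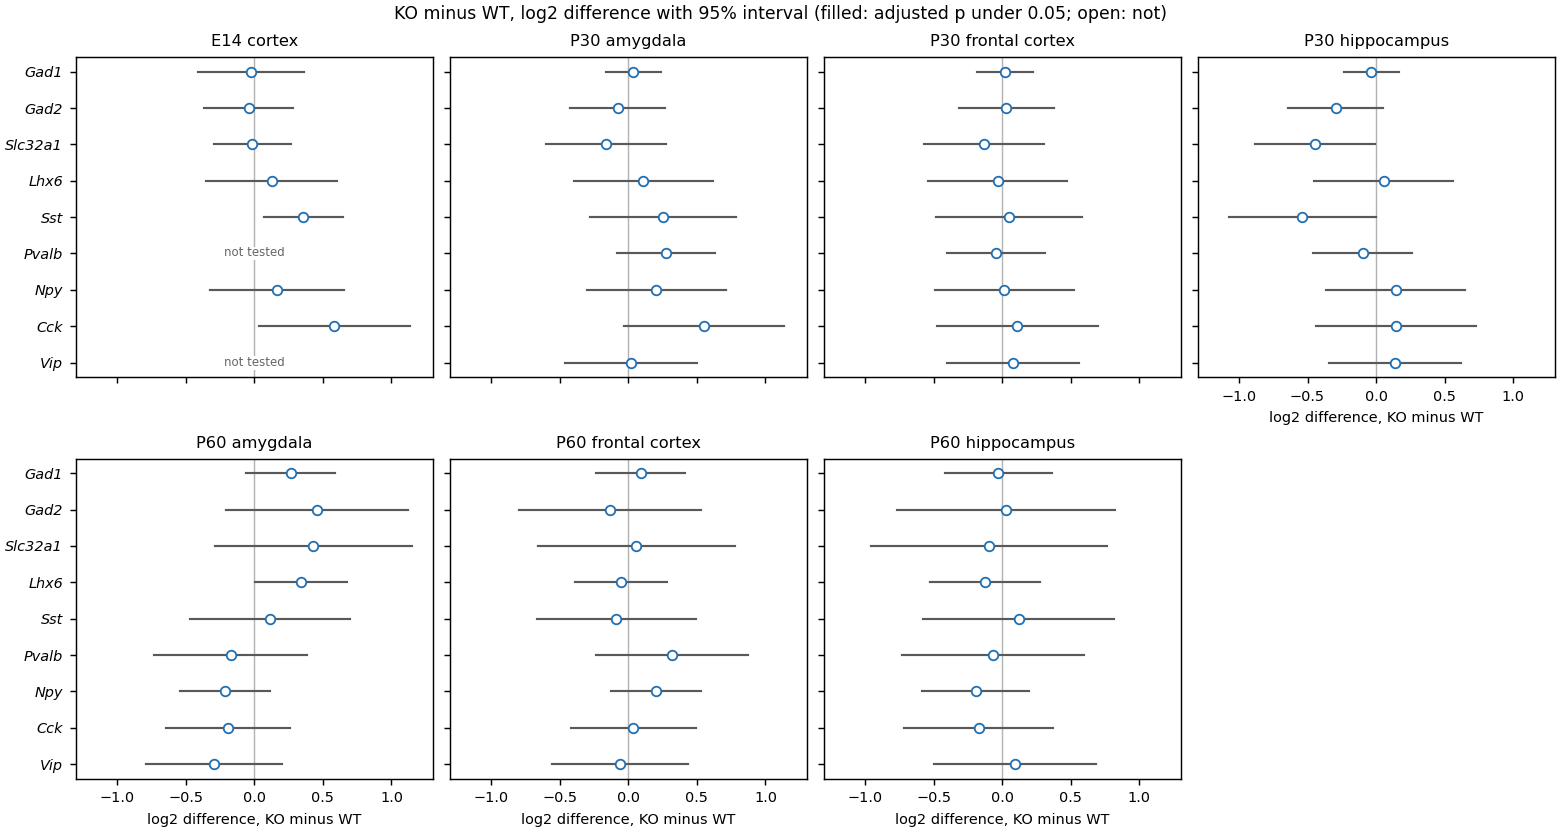
Log2 difference, KO minus WT (horizontal axis), of the 9 genes in the 7 settings, with the 95% interval as a line; a filled point would mark an adjusted p under 0.05. All 61 points are open; Pvalb and Vip were not tested at E14.

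In the E14 cortex, Sst had normalised read counts of 63.9, 47.8, 50.9, 57.5 and 81.3 in KO libraries, against 45.4, 46.4, 47.3 and 44.8 in WT libraries. Every KO library was above every WT library. The log2 difference was 0.36 (SE 0.13, limma adjusted p = 1.00). As a percent of the geometric mean of Gad1, Gad2 and Slc32a1, Sst was 41.9 to 57.4% in KO and 33.0 to 46.3% in WT. The genotypes thus overlapped on that scale. KO replicates 4 and 5 also differed from the rest in the summed counts of 8 progenitor genes, 2088 and 2095 against 2668 to 3636 in the other 7 libraries, and of 8 excitatory neuron genes, 1952 and 2079 against 997 to 1333. The sums of 8 thalamus genes were 424, 433, 729, 652 and 330 in KO libraries, against 749, 899, 750 and 728 in WT libraries. Choroid plexus sums were 244 in KO replicate 2 and 306 in WT replicate 4, against at most 61.9 in the other 7. The part of these differences in that of Sst was not tested. Cck was at 8.79, 4.48, 7.62, 7.88 and 5.73 in KO libraries, against 2.19, 4.06, 6.88 and 4.59 in WT libraries, where the groups overlapped (0.58, SE 0.25, limma adjusted p = 1.00).

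Gad1 and Gad2, which hold the seed matches, gave no call and overlapped between genotypes at E14. Gad1 was at 162, 122, 140.5, 156 and 211 in KO libraries, against 201, 141, 183 and 122 in WT libraries. Gad2 was at 383, 263, 327, 251 and 362 in KO libraries, against 364, 285, 378 and 272 in WT libraries. The ranges overlapped widely, with log2 differences of -0.026 (95% interval -0.41 to 0.36) and -0.041 (-0.37 to 0.29). Over the 6 postnatal settings the log2 differences ran from -0.036 to 0.26 for Gad1 and from -0.29 to 0.46 for Gad2. In the P60 frontal cortex Gad1 was at 232, 232, 235 and 231 in KO libraries, against 213, 214 and 227 in WT libraries, and the groups did not overlap. That difference was small (0.091, SE 0.15, limma adjusted p = 1.00).

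The P30 hippocampus held the largest negative log2 difference of KO against WT among the 61. Sst was at 52.2, 50.8, 76.1 and 91.2 in KO libraries, against 97.5, 125, 56.2 and 121 in WT libraries. The groups overlapped only through WT replicate 3, the library high in choroid plexus and oligodendrocyte genes, and the log2 difference was -0.54 (SE 0.26, limma adjusted p = 0.520). Without the libraries that stood apart it was -0.79 (SE 0.17, limma adjusted p = 0.128), still without a call. Slc32a1 was at 22.6, 24.2, 36.0 and 30.01 in KO libraries, against 30.4, 31.4, 66.3 and 33.4 in WT libraries, a log2 difference of -0.45 (SE 0.21, limma adjusted p = 0.519). Its highest value was that same WT library, without which the difference was -0.19 (SE 0.17, limma adjusted p = 0.816). Sst and Slc32a1 thus moved in opposite ways when this library was left out, Sst further from 0 and Slc32a1 nearer to it.

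In the P30 amygdala Cck was at 152, 121, 140.2 and 134 in KO libraries, against 111, 132, 47.9 and 105 in WT libraries. WT replicate 3, the library high in oligodendrocyte and striatal-type genes, was the lowest, and the log2 difference of 0.55 (SE 0.28, limma adjusted p = 0.537) was 0.24 without it and the other libraries that stood apart (limma adjusted p = 0.551). For Sst the same omission gave a difference of -0.017 in place of 0.25, neither called. Pvalb was at 4.55, 4.51, 4.88 and 5.38 in KO libraries, against 3.38, 2.77, 5.85 and 3.69 in WT libraries, a difference of 0.28 (SE 0.17, limma adjusted p = 0.637), and of 0.45 without those libraries (limma adjusted p = 0.167). In the P30 frontal cortex the 9 differences ran from -0.13 to 0.11 with no unadjusted p under 0.05.

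In the P60 amygdala Gad2 was at 285, 217, 487 and 267 in KO libraries, against 246, 272 and 155 in WT libraries, and Slc32a1 at 49.7, 42.6, 98.8 and 52.4 in KO libraries, against 44.6, 51.2 and 33.5 in WT libraries. The highest value of both was KO replicate 3, the library high in striatal-type genes. The log2 differences were 0.46 (SE 0.31, limma adjusted p = 1.00) for Gad2 and 0.43 (SE 0.34, limma adjusted p = 1.00) for Slc32a1, and without the libraries that stood apart 0.22 and 0.17. Lhx6 was at 37.7, 42.2, 46.9 and 41.8 in KO libraries, against 31.5, 43.2 and 26.2 in WT libraries (0.34, SE 0.16, limma adjusted p = 1.00), a difference that was 0.29 without those libraries.

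In the P60 frontal cortex Pvalb was at 27.5, 24.3, 25.6 and 15.8 in KO libraries, against 18.5, 22.7 and 14.01 in WT libraries. KO and WT overlapped, with a log2 difference of 0.32 (SE 0.26, limma adjusted p = 1.00). In the P60 hippocampus, with 2 KO libraries, the widest interval of the 9 was that of Slc32a1, -0.95 to 0.77, and the differences ran from -0.19 to 0.12.

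Whether the KO effect differed between regions was tested as an interaction for each pair of regions at P30 and P60. No member passed in any of the 6 interactions (0 of 54 tests by limma; 1 at an unadjusted p under 0.05; 0 by voom), and 0% of all genes passed. The member with an unadjusted p under 0.05 was Sst between amygdala and hippocampus at P30, with a KO effect of 0.25 in the amygdala and -0.54 in the hippocampus. The difference of effects was 0.79 (SE 0.36, limma adjusted p = 0.801), with a 95% interval of 0.037 to 1.54, and 0.77 without the libraries that stood apart (limma adjusted p = 0.292). No gene of the fast-spiking, lineage, GABA handling or GABAergic transcription factor lists passed the test of KO against WT in any setting.

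For each member the 2 genes with the most similar levels over the 24 P30 libraries were taken from 11516 named genes with a mean of at least 5, by Pearson's r on log2(value + 1), and r over the 19 P60 libraries is given beside it. The libraries of a region are not independent of each other for this measure, and r is a description with no test. Pvalb was closest to Lrrc8b (r = 0.97; 0.88 at P60) and Sema7a (r = 0.96; 0.92 at P60). Vip was closest to Rnf227 (r = 0.96; 0.90 at P60) and Atp8a2 (r = 0.96; 0.92 at P60), and Sst to Ptprn2 (r = 0.95; 0.89 at P60) and Rasal1 (r = 0.94; 0.90 at P60). Lhx6 was closest to Drosha (r = 0.91; 0.77 at P60) and Kcnmb2 (r = 0.91; 0.60 at P60). Slc32a1 was closest to Cacna2d2 (r = 0.91; 0.97 at P60) and Pld5 (r = 0.91; 0.77 at P60) and Gad2 to Sytl5 (r = 0.91; 0.87 at P60) and Gabrg1 (r = 0.91; 0.76 at P60). Gad1 was closest to Fzd3 (r = 0.80; 0.21 at P60) and Dnah1 (r = 0.79; 0.33 at P60), the lowest of the 9 in P30 likeness. For Cck these were Khdrbs3 (r = 0.90; 0.76 at P60) and Osbpl6 (r = 0.88; 0.18 at P60), and for Npy Fbxw7 (r = 0.95; 0.53 at P60) and Foxk2 (r = 0.94; 0.55 at P60). The likeness found at P30 was above 0.85 at P60 for both genes of Pvalb, Sst and Vip, while for Gad1 it was under 0.35.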

How the data were processed

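Poly-A RNA of 52 mouse brain libraries was sequenced in read pairs with a stranded kit, per the labels' protocols. The deposited tables, 1 for each of the 3 ages, hold normalised read counts per gene that the authors scaled to an effective library size, as CPM are. limma, DESeq, edgeR and the mm9 build are named without a role, per the submitters' processing notes; the sources used here name no aligner, counter or annotation. Dividing by the value of 1 read gave whole reads (within 0.1 read) for 100% of values, hence the depths.

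Gene IDs were matched to GENCODE M21 (48144 of 48526). Genes reaching about 10 reads in a number of libraries equal to the smallest group, and 15 in all, were kept. log2(value + 1) was fitted by limma 3.58.1 in R 4.3.3 (trend, robust), all groups of an age together, and Benjamini-Hochberg adjusted over all genes tested, with a threshold of 0.05. The tables were normalised separately, so no test crosses ages. The script was tested on simulated data. The count tests planned as alternatives, edgeR and DESeq2, were not run, as the deposited values are not counts. The recovered reads could have entered them, and were tested only by voom, which was added after the data were seen.

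The labels were followed where the design text differs from them in the cortical region and in the last age. The design text has the animals born to different mothers; p-values measure the spread between these libraries. Whether libraries of different regions with 1 replicate number come from 1 animal is not stated; sex was the same in all regions for 15 of 15 such numbers. Where there were 3 or more pairs, deviations of same-numbered libraries correlated above 0.1 in every pair of the following. These were KO and WT of the P60 amygdala (0.21 to 0.32, 3 pairs) and the P60 amygdala and frontal cortex of a genotype (0.11 to 0.21, 7 pairs). Correlations were lower but positive in every pair in KO and WT of the P60 frontal cortex (0.03 to 0.22). The same held for the P60 amygdala and hippocampus of a genotype (0.01 to 0.16). The replicate block is given beside the call it changed between P60 amygdala and frontal cortex, that of Cck.

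The members and all gene lists were chosen with earlier results of these data known. All 9 members are described; likeness names the 2 genes of highest r, and list genes are named as up to 3 of the largest called differences in each direction, and some are not reported here. Sequences are from RefSeq (GRCm38.p6) and GENCODE M21. Intervals and floors cover counting error only where counts are given.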

Additional observations from a re-analysis of the deposited data

Results flagged for a closer look

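In 86 pairs of a member and a group of 4 or more libraries, a library was marked when its gap to the nearest other one took most of the group's range, which chance gives in about 1 of 20 groups; 3 were marked. Gad2 was 254.57 in WT P30 hippocampus replicate 3, where the other 3 WT libraries held 169.66 to 176.75. Slc32a1 was 66.26 in the same library, where the other 3 held 30.35 to 33.43. This library also had the highest sums of choroid plexus and oligodendrocyte genes in its region, and their part in both values was not tested. Gad1 was 234.86 in KO P60 frontal cortex replicate 3, where the other 3 KO libraries held 231.27 to 231.8, a narrow range.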

How the results depend on the processing

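No difference reversed among those called. For KO against WT, 0 members were called by limma in any of the 7 settings under any alternative run (pseudocount of 0.1, no filter, trimmed mean of M-values, voom, sex as a covariate, the groups compared alone, the replicate block, and each library left out), and the lowest adjusted p was 0.128, for Sst in the P30 hippocampus without the libraries that stood apart. Over all genes the E14 contrast called 9 genes, and 5 by voom. The planned edgeR and DESeq2 alternatives were not run.

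For regions, the number of members called moved most where fewer libraries entered. Between amygdala and frontal cortex at P30 it was 5, against 2 in WT libraries only, 1 in KO libraries only, and 3 to 6 with each library left out; at P60 it was 5, against 1 in WT libraries only and 4 to 6. Between hippocampus and frontal cortex at P30 it was 6, against 3 in WT libraries only; at P60 it was 2, against 1 in WT libraries only, 1 in KO libraries only, 1 to 4 with each library left out and 5 without the libraries that stood apart or without both replicate 1 hippocampus libraries. Between amygdala and hippocampus it was 8 at P30, against 5 in WT libraries only, and 5 at P60, against 8 under either omission. The shares of all genes called under these alternatives are not given here. Whether the members moved apart from other genes cannot be read from these counts.

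The replicate numbers were used as a block. Same-numbered KO and WT libraries had correlations of deviations from -0.40 to 0.26 at E14, from -0.21 to 0.18 at P30, from 0.21 to 0.32 in the P60 amygdala, from 0.03 to 0.22 in the P60 frontal cortex and from 0.50 to 0.62 in the P60 hippocampus (2 pairs). Between regions of a genotype they ran from -0.10 to 0.24 at P30 and from -0.01 to 0.21 at P60, with all 7 pairs of amygdala and frontal cortex above 0.1 at P60. Under the replicate block, Cck between amygdala and frontal cortex was called at P30 (adjusted p = 0.0322, limma) and not at P60 (0.0598), Npy between amygdala and hippocampus was called at P30 (0.0356), and no other call on a member changed. The low reads of Pvalb and Vip at E14 and the 2 KO libraries of the P60 hippocampus limit what could be detected there.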
